A study of Sus scrofa with 6 samples.

Results

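The genes described here encode ubiquitin conjugating enzymes (E2 enzymes, UBE2 symbols) and ubiquitin-specific proteases (USP symbols), the largest family of deubiquitinases. Members were taken by name alone, as every row of the deposited table whose gene symbol begins with UBE2 or with USP and a digit. The rule found 24 UBE2 rows and 33 USP rows, together 57 of the 10915 rows with values. One of them, USP6NL, carries the letters of the family but encodes a GTPase activator of RAB proteins, so 32 USP rows are proteases of this fold or their relatives.

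Ubiquitin is activated by an E1 enzyme, passed to the catalytic cysteine of an E2 enzyme, and attached to a target protein with the help of an E3 ligase. The E2 enzyme often sets the kind of chain that is built, and related E2 enzymes carry ubiquitin-like proteins such as ISG15. Ubiquitin-specific proteases cut these chains again, which spares proteins from the proteasome, recycles ubiquitin or ends a signal. In epithelial cells this traffic governs receptor turnover, the cell cycle and inflammatory signalling.

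Primary cultures of pig endometrial epithelium, which lines the uterus, were grown from slaughterhouse uteri, and their RNA was sequenced at passage 3. The exosome group, 3 libraries, was exposed for 48 h to 10 µg per well of vesicles that a commercial reagent had precipitated from the sperm-rich part of the seminal fluid of pigs. The control group also has 3 libraries, and whether it received a carrier solution is not stated. Separate uteri or wells are not named for the libraries, so p-values measure only how far these libraries differ, and that spread may be technical.

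Levels are given in FPKM, fragments counted per length of transcript and per size of library, and since they are per length they can be set side by side between genes. Summed FPKM for the genes tested ranged from 721212 to 732859 in the control and from 690193 to 711177 in the exosome libraries, without overlap. As no counts are given, sequencing depth is unknown. The epithelial keratins KRT8 and KRT18 were abundant, at 3037 ± 48.0 and 1255 ± 15.0 FPKM in the control libraries (SD, n = 3). The stromal genes VIM and CD90 were also present at 557 ± 52.4 and 2328 ± 93.7 FPKM. The collagens of the same stromal list, COL1A2, COL1A1 and COL3A1, stood lower at 50.9 ± 4.67, 15.7 ± 13.8 and 1.18 ± 0.862 FPKM. Of 6 leukocyte markers only CD14 and CD68 had rows, both under 10 FPKM in mean. For CDH1, a defining epithelial gene, no row was found under that name. In these bulk samples, fewer cells of a type and less RNA per cell cannot be told apart.

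Among the rows with a symbol, the E2 enzymes were the more abundant family in every library. The gene column held no symbol in 2607 rows, so family members in such rows are outside this comparison. The median UBE2 row stood at 52.8 ± 0.515 FPKM in the control and 51.9 ± 0.916 FPKM with exosomes (SD, n = 3 in each). The median USP row stood at 11.15 ± 0.377 and 11.11 ± 0.229 FPKM. Within a library the UBE2 median was between 4.54 and 4.95 times the USP median, so the distance between the families was nearly the same in all 6. In each library 2 USP rows lay above the UBE2 median, and they were USP5 and USP7 throughout. The median of all genes tested was 15.0 FPKM, between the medians of the families.

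**Figure D1:**
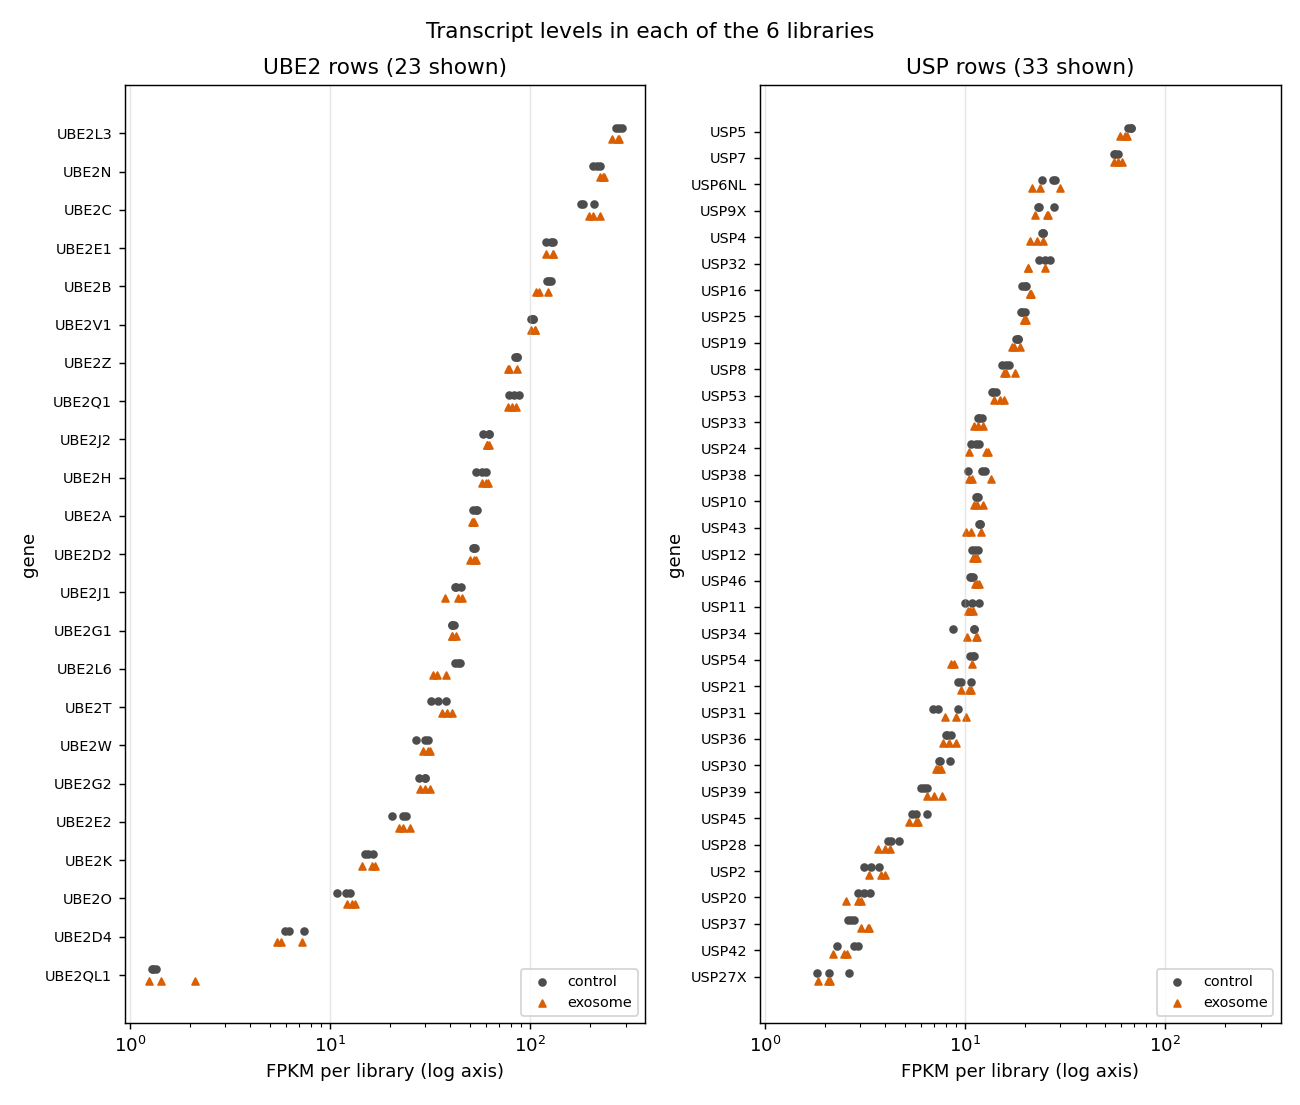
Level of 23 UBE2 rows (left) and 33 USP rows (right) in FPKM on a log axis, with 1 point for each of the 3 control and 3 exosome libraries and genes ordered by their mean. The UBE2 rows spread from 1.46 to 273 FPKM in mean and the USP rows from 2.10 to 64.4 FPKM, and the points of the groups lie close together in most rows.

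The leading E2 enzymes headed their family in the same order in all 6 libraries. UBE2L3 (ENSSSCG00000010088), an E2 enzyme that works with HECT and RING-between-RING ligases, was at 287, 278 and 269 FPKM in control replicates 1 to 3 and at 274, 277 and 255 FPKM in the exosome libraries. UBE2N (ENSSSCG00000000908), which builds lysine-63 chains in NF-kB signalling and DNA repair, followed at 214 ± 8.71 and 230 ± 5.02 FPKM. UBE2C (ENSSSCG00000007423), the E2 enzyme that starts chains for the anaphase-promoting complex, came after them at 190.1 ± 16.1 and 209 ± 12.4 FPKM. These 3 genes made up 37.8% ± 1.01 of the summed UBE2 level (SD over the 6 libraries). UBE2E1 and UBE2B, with means of 126 and 119 FPKM, exchanged places below them between libraries, so their order does not exceed their spread.

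The proteases had a pair of leaders as well. USP5 (ENSSSCG00000000684), which takes apart free ubiquitin chains, held the first place in every library and 13.3% ± 0.486 of the summed USP level (SD over the 6 libraries). USP7 (ENSSSCG00000007907), which acts on MDM2 and p53, was second in all 6 libraries at a mean of 57.3 FPKM. USP6NL, USP9X, USP4 and USP32 came next among the rows with a symbol, with means from 23.6 to 25.9 FPKM, and exchanged places from library to library. At the other end stood USP42 and USP27X among the proteases, at 2.55 and 2.10 FPKM. UBE2D4 and UBE2QL1 were the lowest E2 rows, at 6.34 and 1.46 FPKM. Rows without a symbol are outside this order. Those that a reference gene table names USP10, USP15 and USP35 had means of 36.3, 27.8 and 1.77 FPKM.

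The comparison of the groups asks which transcripts differ after contact with seminal vesicles. The median differences of both families were close to 0. The median log2 change, exosome minus control on the log2(FPKM + 1) scale, was 0.013 over the UBE2 rows (14 higher, 10 lower) and -0.0050 over the USP rows (15 higher, 18 lower), against -0.0023 over all 10846 genes tested. The quartiles of the UBE2 changes were -0.04 and 0.07, and those of the USP changes -0.09 and 0.08. The USP median was thus below the UBE2 median by a log2 difference of -0.018, which is within the SD of that difference between libraries of a group, 0.025. Summed over the family, the UBE2 level was 1838 ± 39.0 FPKM in the control and 1840 ± 19.4 FPKM with exosomes, and the USP level 487.9 ± 9.47 and 483 ± 17.1 FPKM (SD, n = 3). Summed FPKM of all genes was lower with exosomes, so shares of it read differently. The UBE2 share was 0.2495 to 0.2573% in the control and 0.2574 to 0.2698% with exosomes, just without overlap. The USP share was 0.0654 to 0.0679% and 0.0652 to 0.0708%, with overlap.

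No member passed limma's test at an adjusted p of 0.05, where 0% of all genes did; 1362 genes in all had an unadjusted p under 0.05. Below that unadjusted p were 2 of 57 members, 3.51% beside 12.6% of all genes tested. They were USP37 on the higher side, where 5.06% of all genes lay, and UBE2L6 on the lower side, where 7.5% did. The 3 exosome libraries lay wholly beyond the 3 control libraries in 7 members, 4 higher and 3 lower, which is 12.3% beside 18.7% of all genes (8.29% higher, 10.4% lower). A bound of 1.25-fold was set on FPKM + 1, so in low rows it allows a larger change of FPKM itself. The 95% interval of the log2 change lay inside this bound in either direction for 45 of the 57 members (78.9%), beside 63.9% of all genes. It did so for 21 of the 24 UBE2 rows and 24 of the 33 USP rows. Replicate spread differed in the same order, with a median within-group SD of log2 values of 0.070 for UBE2 rows, 0.080 for USP rows and 0.095 for all genes. Members were described beside all genes here, and no test of the families against other genes was made.

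**Figure D2:**
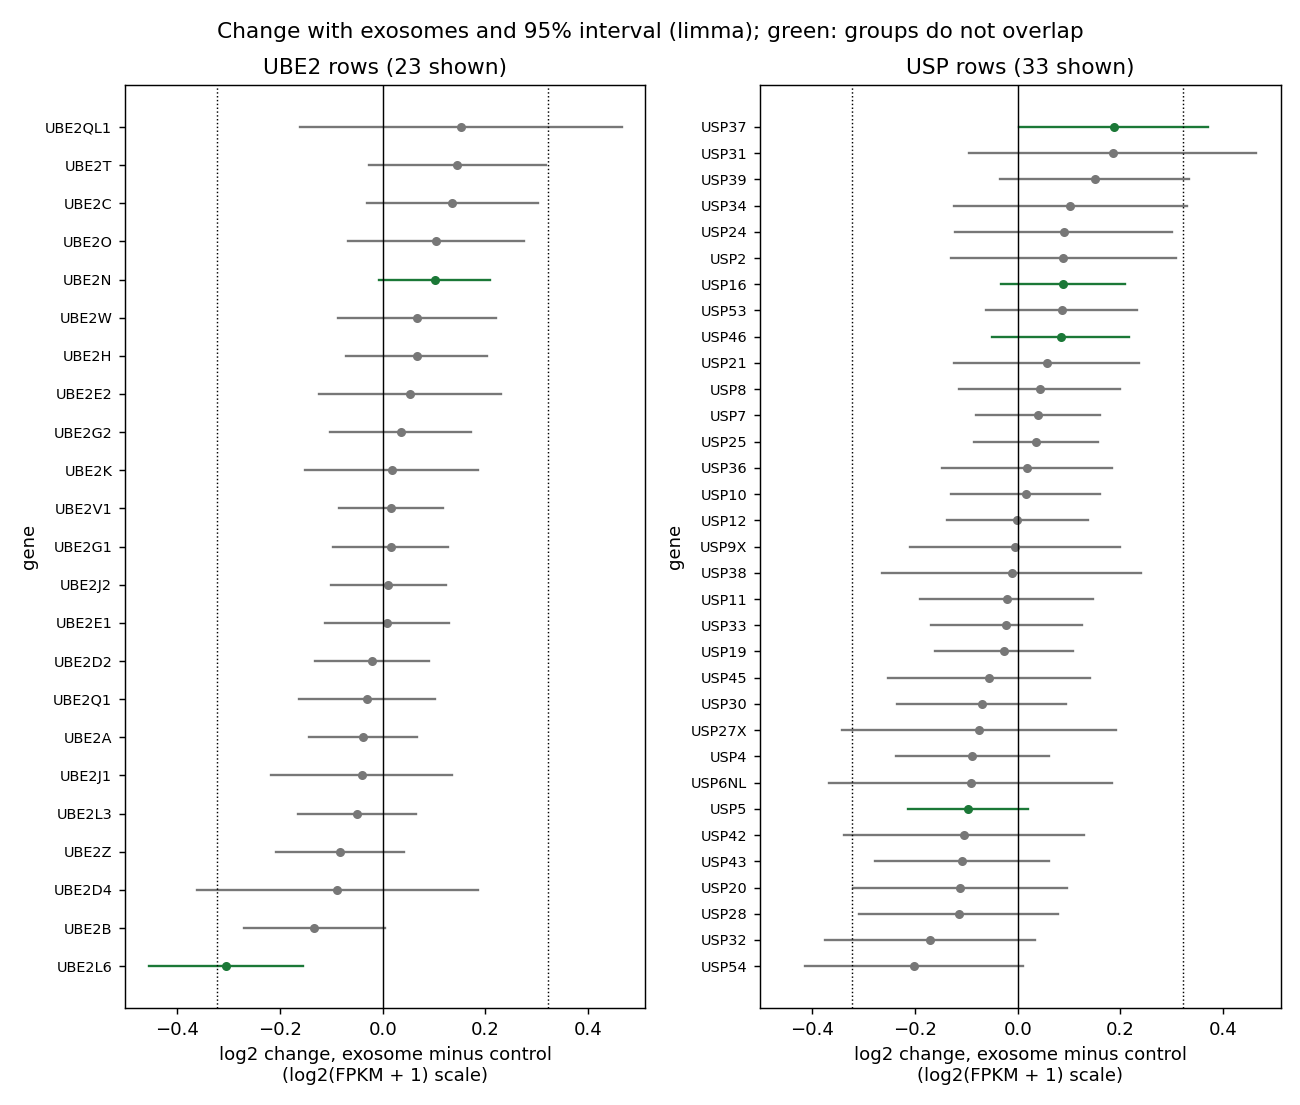
Log2 change (exosome minus control, log2(FPKM + 1) scale) of 23 UBE2 rows (left) and 33 USP rows (right), each with its 95% interval from limma. Dotted lines mark a 1.25-fold change of FPKM + 1, and green marks members whose groups do not overlap, 6 of those plotted. UBE2L6, at a log2 change of -0.31, is the member farthest from 0.

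Among the E2 enzymes of ubiquitin-like proteins, UBE2L6 showed the largest difference of all 57 members. UBE2L6 (ENSSSCG00000023379; RefSeq places the gene of this symbol on chromosome 2 of Sscrofa11.1, 13354088 to 13368446) is the E2 enzyme of ISG15, an interferon-induced ubiquitin-like protein. Its level was 42.3, 44.6 and 43.4 FPKM in control replicates 1 to 3 and 34.1, 38.1 and 32.8 FPKM in exosome replicates 1 to 3. All 3 exosome libraries were below all 3 control libraries, and exosome replicate 2 was the nearest to them. The log2 change was -0.31 with an SE of 0.065 and a 95% interval from -0.46 to -0.15, an unadjusted limma p of 0.00164 and an adjusted p of 0.219. Leaving out exosome replicate 2 gave a log2 change of -0.36 and an adjusted limma p of 0.0227. As that library was the nearest to the controls, leaving it out enlarges the change by construction. This fit was the 1 alternative of 18 in which UBE2L6 passed, and the adjusted p ranged from 0.0227 to 0.808 over the alternatives.

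Of the partners of UBE2L6 in the same reaction, the E1 enzyme could be compared. UBA7 was at 5.96, 6.69 and 5.40 FPKM in the control and at 5.18, 6.14 and 8.77 FPKM in the exosome libraries, so the groups overlapped. For ISG15 and the ISG15 protease USP18 no row was found under these names. Epithelial marker genes were mostly lower as UBE2L6 was. Of 7 rows found for 9 listed symbols, 6 had a negative log2 change. In 4 rows the exosome libraries lay wholly below the controls, beside 10.4% of all genes. The summed epithelial level was 9203 to 9532 FPKM in the control and 8133 to 8941 FPKM in the exosome libraries. The 5 stromal rows found (none under the names DCN, LUM or PDGFRA) all had a negative log2 change too, but only CD90 was without overlap. The spread was wide in COL1A1, from 2.48 to 30.0 FPKM in the control and from 0.887 to 20.4 FPKM in the exosome libraries. The stromal sums were 2788 to 3042 and 2274 to 2494 FPKM, of which CD90 made up most. The part of these markers in the UBE2L6 result was not tested.

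Other genes of ubiquitin-like conjugation had smaller or opposite differences. UBA2, the catalytic subunit of the heterodimeric E1 enzyme of SUMO, was at 65.4 ± 3.69 FPKM in the control and 76.4 ± 4.97 FPKM with exosomes (SD, n = 3), a log2 change of 0.22 that did not pass (adjusted p = 0.290). Its other subunit, SAE1, was at 91.2 ± 1.07 and 93.2 ± 3.96 FPKM. UBE2Z, which carries ubiquitin and FAT10, was at 85.3 ± 1.54 and 80.6 ± 4.62 FPKM, with exosome replicate 2 at 85.9 FPKM inside the control range and replicates 1 and 3 below it.

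The E2 enzymes of lysine-63 chains differed by little. UBE2N was at 223, 215 and 205 FPKM in the control and at 232, 224 and 233 FPKM in the exosome libraries. The groups of UBE2N lay next to each other without overlap, at a log2 change of 0.10 (95% interval -0.0076 to 0.21, adjusted p = 0.419). In the reference gene table the identifier of this row is listed under UBE2NL, a copy of UBE2N, so reads of the copies may be shared in it. UBE2V1, the inactive partner that steers UBE2N to lysine 63, was at 102.8 ± 1.37 and 104 ± 2.56 FPKM, a log2 change of 0.016. TRAF6, a ligase that uses this pair, was at 12.4 ± 0.347 and 12.5 ± 0.138 FPKM.

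The cell cycle E2 enzymes UBE2C and UBE2T had the highest log2 changes among the E2 rows above 10 FPKM. UBE2C was at 208, 179 and 183 FPKM in the control and at 222, 198 and 206 FPKM in the exosome libraries, a log2 change of 0.14 (adjusted p = 0.470). UBE2T (ENSSSCG00000010924), the E2 enzyme of the Fanconi anaemia DNA repair pathway, was at 37.9, 34.5 and 32.0 FPKM and at 40.9, 38.4 and 36.3 FPKM, a log2 change of 0.15 (adjusted p = 0.460). In both genes control replicate 1 lay within the exosome range, so the groups overlapped. Markers of dividing cells differed in the same direction: 8 of 10 symbols had 9 rows, and all 9 had a positive log2 change, with a median of 0.18. Of these rows 6 had an unadjusted p under 0.05 in limma, beside 5.06% of all genes on the higher side, and 0 passed adjustment. In 5 rows the exosome libraries lay wholly above the controls, beside 8.29% of all genes. The summed level of the 9 rows was 438 to 487 FPKM in the control and 491 to 559 FPKM in the exosome libraries. The part of these markers in the UBE2C and UBE2T results was not tested.

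Among E2 enzymes of endoplasmic reticulum quality control all 5 listed members were found, and they hardly differed. UBE2J1 and UBE2J2, which are anchored in the membrane of the reticulum, had log2 changes of -0.04 and 0.011. UBE2G1, UBE2G2 and UBE2K, soluble enzymes recruited by membrane ligases, had changes of 0.016, 0.035 and 0.018. The 95% interval of each of the 5 lay inside a 1.25-fold change of FPKM + 1.

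UBE2B and UBE2A are close relatives that ubiquitinate histones and the replication clamp PCNA. UBE2B (ENSSSCG00000011927) was at 125, 127 and 122 FPKM in the control and at 111, 107 and 123 FPKM in the exosome libraries. Exosome replicate 3 lay inside the control range and the other 2 below it, which gave a log2 change of -0.13 (95% interval -0.27 to 0.0044, adjusted p = 0.408). UBE2A, on the X chromosome, was at 53.2 ± 1.25 and 51.8 ± 0.488 FPKM. UBE2W, which attaches ubiquitin to the amino terminus of proteins, was at 29.2 ± 2.10 and 30.6 ± 1.21 FPKM.

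In the UBE2D and UBE2E class, general partners of many RING ligases, the 4 members found had log2 changes between -0.09 and 0.05. UBE2E1 was at 127, 121 and 129.6 FPKM in the control and at 129.8, 120.1 and 129.8 FPKM in the exosome libraries. UBE2D2 was at 52.7 ± 0.553 and 51.9 ± 1.78 FPKM. Genes of the UBE2D group encode closely similar proteins. Whether reads were shared between these genes was not checked, so the level of a single one is uncertain. Of the remaining E2 enzymes, UBE2H was at 57.0 ± 3.36 and 59.7 ± 2.24 FPKM, UBE2Q1 at 83.0 ± 4.40 and 81.2 ± 3.46 FPKM, and UBE2O, a large enzyme that joins E2 and E3 activity, at 11.8 ± 0.925 and 12.8 ± 0.546 FPKM. UBE2QL1 was at 1.29, 1.35 and 1.31 FPKM in the control and at 2.13, 1.43 and 1.24 FPKM in the exosome libraries. Its positive log2 change of 0.15 therefore came mainly from exosome replicate 1, and it was 0.011 without that library.

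The protease with the smallest p was USP37 (ENSSSCG00000016194; the RefSeq gene of this symbol lies on chromosome 15 of Sscrofa11.1, 120492552 to 120590230), which protects cyclin A and drives entry into S phase. It was at 2.70, 2.60 and 2.79 FPKM in the control and at 3.04, 3.30 and 3.28 FPKM in the exosome libraries. All 3 exosome libraries were above the controls, with a log2 change of 0.19 (SE 0.079, 95% interval 0.0031 to 0.37), an unadjusted limma p of 0.0471 and an adjusted p of 0.390. The unadjusted limma p was above 0.05 with quantile normalization (0.0634), with the replicate number as a block (0.0844) and in each fit that left out libraries (0.0728 to 0.224) except the one without exosome replicate 1 (0.0486). The level is low, and the log2(FPKM + 1) scale understates changes there: the ratio of group means was 1.19. The markers of dividing cells described with UBE2C differed in the same direction, and their part was not tested.

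**Figure D3:**
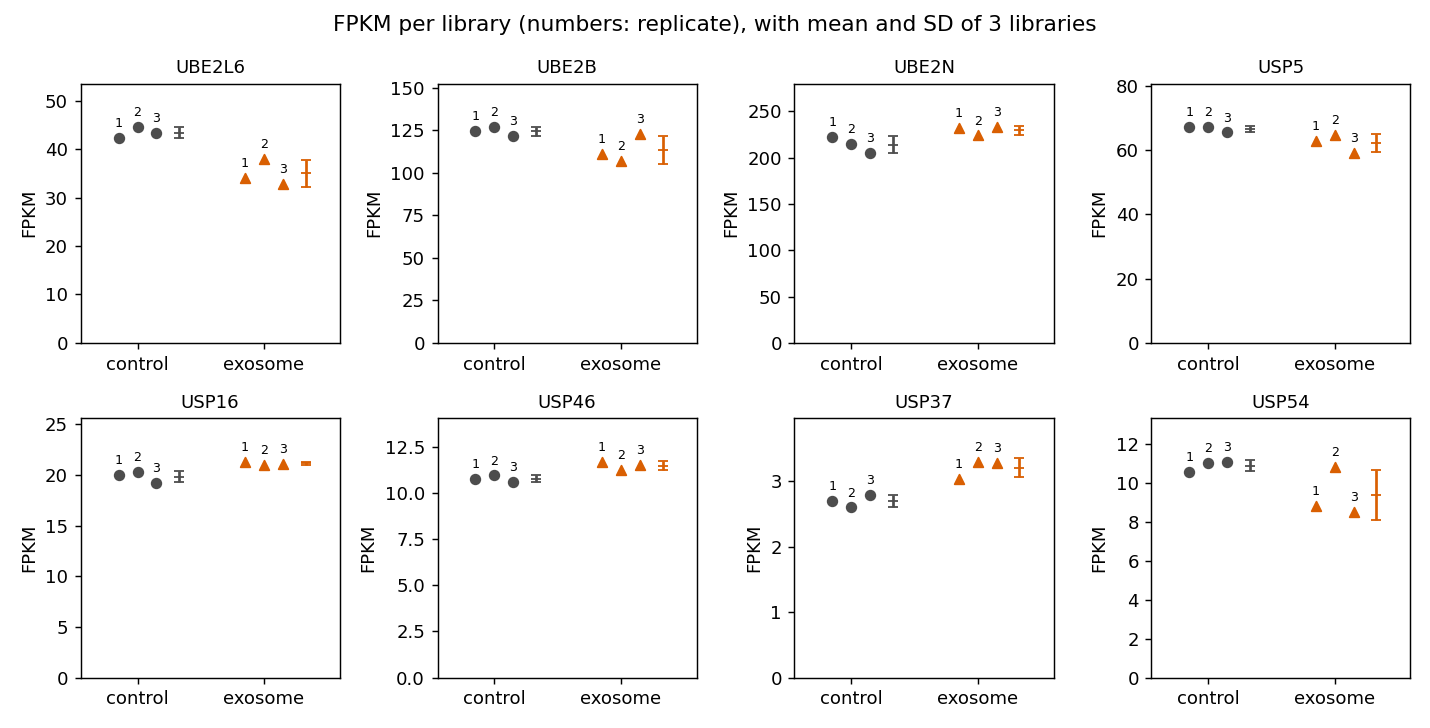
FPKM of 6 members whose groups do not overlap, and of UBE2B and USP54, in each library (points numbered by replicate), with the mean and SD of the 3 libraries of a group at the side and axes from 0. In UBE2L6 the exosome libraries lie between 32.8 and 38.1 FPKM and the controls between 42.3 and 44.6, and in USP54 exosome replicate 2 lies with the controls.

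Of the proteases that act on chromatin and DNA damage, 7 of 14 listed symbols had rows under their names, and their log2 changes ran from -0.11 to 0.09. Rows that the reference gene table names USP3 and USP47 are outside this count. USP16, a protease of ubiquitinated histone H2A, was at 20.03, 20.3 and 19.2 FPKM in the control and at 21.3, 21.0 and 21.1 FPKM in the exosome libraries. The groups of USP16 did not overlap, at a log2 change of 0.09 (adjusted p = 0.527). USP28, a protease of MYC and 53BP1 pathways, was at 4.37 ± 0.293 and 3.96 ± 0.276 FPKM (log2 change -0.11). USP7 was at 55.8, 57.9 and 55.8 FPKM and at 61.0, 58.0 and 55.5 FPKM, so its groups overlapped. MDM2, the ligase that USP7 stabilises, was higher at 55.4 ± 0.690 and 63.2 ± 4.30 FPKM, with an adjusted p of 0.308.

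Proteases of free chains and of the WDR48 complexes gave small differences with little spread. USP5 was at 67.2, 67.2 and 65.5 FPKM in the control and at 62.9, 64.7 and 59.2 FPKM in the exosome libraries. Its exosome libraries all lay lower, at a log2 change of -0.10 (95% interval -0.21 to 0.019, adjusted p = 0.462). Ubiquitin itself was lower in mean too, with UBB at 1508 ± 38.6 and 1356 ± 166 FPKM, though its groups overlapped. USP46 was at 10.8, 10.9 and 10.6 FPKM and at 11.7, 11.2 and 11.5 FPKM, without overlap (log2 change 0.08, adjusted p = 0.576). Its close relative USP12 was level at 11.2 ± 0.358 and 11.2 ± 0.249 FPKM, as was their shared activator WDR48 at 22.1 ± 1.798 and 22.2 ± 1.77 FPKM.

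Proteases of membranes and organelles had log2 changes from -0.17 to 0.09 over 7 members. USP32, a protease of endosome and Golgi membranes, was at 23.4, 26.5 and 25.1 FPKM in the control and at 20.6, 25.1 and 20.7 FPKM in the exosome libraries. Exosome replicates 1 and 3 were below every control and replicate 2 was among them with a log2 change of -0.17 and an adjusted p of 0.461. USP8, which spares endocytosed receptors, was at 16.0 ± 0.692 and 16.5 ± 1.08 FPKM. USP19, anchored in the endoplasmic reticulum, was at 18.2 ± 0.187 and 17.9 ± 0.880 FPKM. USP20 and USP33, a related pair, had log2 changes of -0.11 and -0.02. The row of USP30, the mitochondrial protease, has an identifier that the reference table lists under ALKBH2, so its 7.80 ± 0.532 and 7.37 ± 0.191 FPKM are uncertain between these genes.

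Signalling proteases spread to both sides, with 5 of 9 members higher and 4 lower. USP31 had the highest mean change of them, at 7.37, 9.24 and 6.91 FPKM in the control and 10.1, 9.02 and 7.92 FPKM in the exosome libraries, with overlap (a log2 change of 0.18, adjusted p = 0.559). The change of USP31 was 0.11 without exosome replicate 1, 0.11 without control replicate 3 and 0.30 without control replicate 2, and it was lowest, at 0.070, without replicate 1 of both groups. USP4, which acts on TGF-beta receptors, was at 24.4, 24.6 and 24.2 FPKM and at 23.0, 21.2 and 24.6 FPKM. USP43 was at 11.9 ± 0.0716 and 10.96 ± 0.970 FPKM. The control libraries of USP43 lay much closer together than the exosome libraries, in which replicate 2 stood at 12.01 and replicate 3 at 10.1 FPKM. USP9X, a very large X-linked protease, was at 24.8 ± 2.52 and 24.7 ± 2.03 FPKM.

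The 3 USP members grouped for this description as lacking protease activity differed in direction. Whether each of them lacks that activity was not tested here. USP39, a splicing factor, was at 6.47, 6.25 and 6.01 FPKM in the control and at 7.67, 6.44 and 7.04 FPKM in the exosome libraries with a log2 change of 0.15 and an adjusted p of 0.475. USP53, a tight junction protein, was at 13.9 ± 0.333 and 14.9 ± 0.872 FPKM (log2 change 0.09). USP54 (ENSSSCG00000010302) had the most negative log2 change among the USP rows, at 10.6, 11.03 and 11.11 FPKM and at 8.81, 10.8 and 8.52 FPKM. The log2 change was -0.20 (95% interval -0.41 to 0.0099, adjusted p = 0.413), and exosome replicate 2 lay among the controls. USP6NL, which is no protease, was at 26.6 ± 2.21 and 25.1 ± 4.37 FPKM, with exosome replicate 2 above all controls at 30.0 and the other 2 below them.

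In several members a single exosome library stood apart from the other 2. In 11 members (19.3%) exosome replicates 1 and 3 lay beyond the control range on one side and replicate 2 did not, beside 22.3% of all genes tested. The same pattern with replicate 1 or 3 as the library apart was found in 6 members (10.5%, beside 5.80% of all genes) and in 10 members (17.5%, beside 12.2%). Without exosome replicate 2, 9 members had an unadjusted p under 0.05 (15.8%, beside 22.1% of all genes), 7 lower (11.8% of all genes) and 2 higher (10.2% of all genes). They were UBE2L6, USP54, USP32, UBE2Z, USP43, USP6NL and USP5 on the lower side and USP39 and UBE2N on the higher side. In each of them replicate 2 lay against the direction of the change relative to the other 2 exosome libraries. Leaving it out therefore enlarges these changes by construction. UBE2L6 passed adjustment in that fit, 1 of 57 members (1.75%) beside 2.74% of all genes (0.857% higher, 1.88% lower), while USP54 and USP32 had adjusted p-values of 0.0660 and 0.0898.

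The wider ubiquitin pathway was read from other listed genes. Of 110 other listed symbols, 89 were found in 90 rows, with a median log2 change of 0.0084, 47 higher and 43 lower. No row of them passed adjustment by limma; 4 of the 90 had an unadjusted p under 0.05, beside 12.6% of all genes. They were 3 higher and 1 lower, beside 5.06% and 7.5% of all genes. The higher ones were UBA2, MDM2 and CDC23, named after their values were seen. CDC23, a subunit of the anaphase-promoting complex that UBE2C serves, was at 10.5 ± 0.380 FPKM in the control and 12.1 ± 0.496 FPKM with exosomes (adjusted p = 0.334), while its activator CDC20 was at 16.4 ± 0.650 and 17.4 ± 0.762 FPKM. By class, 0 of 8 ubiquitin and ubiquitin-like rows, 1 of 8 E1 rows, 0 of 4 other E2 rows, 3 of 40 rows of E3 ligases and their subunits, 0 of 25 rows of other deubiquitinases and 0 of 5 rows of USP cofactors had an unadjusted p under 0.05. The most abundant E1 enzyme, UBA1, was at 281 ± 11.2 and 264 ± 12.4 FPKM, and the NF-kB deubiquitinases TNFAIP3 and CYLD had log2 changes of -0.00015 and -0.02.

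Another 8 rows carry no symbol in the deposited table but belong to USP genes by the reference table, and they lie outside the naming rule. They were USP3, USP15, USP35, USP40 and USP47, and second rows for USP10, USP31 and USP39. USP10 stood at 11.5 ± 0.114 FPKM in the control under its symbol and at 35.9 ± 1.24 FPKM in its second row, so a gene's level can be split over rows here. The second row of USP31 was at 5.05, 5.14 and 5.52 FPKM in the control and at 6.40, 6.22 and 6.07 FPKM in the exosome libraries, without overlap and on the same side as the mean of the row with the symbol (a log2 change of 0.21, unadjusted limma p of 0.0161, adjusted p = 0.313). USP15, a relative of USP4, was at 27.0 ± 0.873 and 28.7 ± 1.68 FPKM.

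RefSeq positions on Sscrofa11.1 were found by symbol for 56 of the 57 members, which lie on 18 chromosomes. The X chromosome holds 4 of them, UBE2A, USP9X, USP11 and USP27X. USP19 and USP4, on chromosome 13 with a gap of 107 kb between them, were the closest pair of members, and their log2 changes were -0.03 and -0.09. The span of the RefSeq gene had a median of 34.3 kb for 23 UBE2 genes and 60.5 kb for 33 USP genes, with USP34 the longest USP gene at 259 kb and UBE2C the shortest E2 gene at 3.14 kb.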

How the data were processed

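RNA of 6 libraries, 3 control and 3 exosome, was grouped by sample titles. Per the submitters' processing notes, reads were demultiplexed with bcl2fastq 1.8.4 and processed with TopHat and Cufflinks on Sscrofa11.1; the annotation, the filters and other versions are not stated in these sources. The library kit keeps strand, per the labels' protocols; whether counting used it is not given. FPKM is the unit inferred for the deposited values, from the tool named and the values themselves. Every deposited row exceeds 1 FPKM in at least 1 library, so rows below that are outside this description. No sequences were used here.

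Values were transformed as log2(FPKM + 1), and the 10846 genes whose mean reached 1 FPKM were tested with limma 3.58.1 in R 4.3.3 (intensity trend, two-sided, Benjamini-Hochberg adjustment over all genes, threshold 0.05). On simulated data with independent noise, this test called 32% of planted 1.25-fold changes, 74% of 1.5-fold changes and 0.103% of unchanged genes. Differences shared by a whole library were not simulated, so these shares may not hold for the real libraries. All 57 members passed the filter. Whole-read steps were not seen in low values (181 distinct ratios between 2 libraries in the 200 lowest rows), so count models were not used. With 3 libraries against 3, the smallest two-sided exact permutation p is 0.1.

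Members, lists and the 1.25-fold bound were chosen with earlier results of these data known. Values per library or by group are given for members with the smallest p in each direction (up to 6 per family) and the highest 6 and lowest 2 levels, and the other members are given by role. Member identifiers had the same symbol in the reference names for 39, another for 2 (UBE2N and USP30) and none for 16. Alternatives were other pseudocounts, filters, scalings, variance models, the replicate block, left-out libraries and member definitions. Figures were drawn with matplotlib 3.10.9. One member and 1 pathway gene enter the counts and medians but are not reported here by name.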

Additional observations from a re-analysis of the deposited data

How the results depend on the processing

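The count of genes passing adjustment was 0 under every pseudocount, filter, scaling and variance model tried and in the replicate block fit. When libraries were left out it ranged from 0 to 297, the highest without exosome replicate 2, with 58 without replicate 2 of both groups and 1 each when control replicate 3 alone, or replicate 3 of each group, was left out. Members with an unadjusted p under 0.05 numbered 2 in the reported fit, 1 with a mean of at least 5 FPKM, where USP37 is not tested, and 4 in the replicate block fit, of which USP37 was not one. Leaving out libraries gave 1 (without control replicate 3) to 9 (without exosome replicate 2), and 4 without control replicate 1. Same-numbered libraries correlated at 0.16, 0.14 and -0.07 in their deviations from the group means, and not every library correlated best with its own number, so the numbers were not taken to pair libraries. When libraries were left out, the USP median log2 change ranged from -0.021 to 0.026 (-0.020 without control replicate 1, 0.018 without control replicate 3, 0.023 without exosome replicate 3) and its difference from the UBE2 median from -0.036 to 0.021 (0.017 without exosome replicate 3 and 0.020 with replicate 3 of both groups left out), so neither has a settled sign. The ratio of the family medians was 4.48 with a mean of at least 5 FPKM, where fewer rows enter, and 4.66 to 4.75 when libraries were left out, against 4.71. That ratio was 4.80 with the rows added that the reference table names as USP genes. Members with small changes turned in sign. USP9X was at 0.0018 with quantile normalization and 0.0011 with median of ratios scaling, and from -0.085 to 0.074 when libraries were left out (-0.049 without control replicate 1, 0.043 and 0.027 without replicate 2 or 3 of both groups). The range was -0.26 to 0.064 for UBE2D4, -0.021 to 0.045 for UBE2E1 (-0.0023 without replicate 1 of both groups), -0.16 to 0.023 for USP27X (0.010 without replicate 3 of both groups), -0.22 to 0.053 for USP6NL (0.0081 without exosome replicate 3) and -0.0028 to 0.072 for USP7. The cause was not tested. Other members were followed through the alternatives only where the rule for values per library chose them, and these kept their sign. USP33, which it did not choose, was at -0.022 and turned to 0.011 without exosome replicate 2. Depth is unknown, so what it limits cannot be given.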
